A study of Mus musculus with 6 samples.

Results

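The genes described here encode subunits of AP-1, a transcription factor made of 2 proteins joined through basic leucine zippers (bZIP). The 10 genes are the Fos family (Fos, Fosb, Fosl1, Fosl2), the Jun family (Jun, Junb, Jund) and Atf3, Batf and Batf3, taken by symbol from 21887 protein-coding genes placed on mm10. All 10 were found. ATAC-seq, which reads open DNA through adapters that a transposase places there, had been run on a mouse embryonic fibroblast line immortalized with c-myc. The values come from 1 list of accessible intervals of the Ezh2 -/- cells, which lack Ezh2, a catalytic subunit of Polycomb repressive complex 2, and had 2 samples. The other groups, Ezh2 -/- cells with a retroviral pMSCV-Ezh2 rescue and wild-type cells, each with 2 samples, were not analysed here. All 3 groups derive from line A, a single immortalized line carrying exogenous c-myc. The list holds no value per replicate, so no error between replicates and no test across samples can be given, and no value below compares genotypes. The list held 21835 intervals, pieces of 19215 regions called by SEACR, a peak caller for sparse coverage. Its read depth is unknown.

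Fos proteins do not pair with themselves and bind DNA with a Jun partner, whereas Jun proteins can also pair with each other. The dimers recognise the AP-1 site TGANTCA, and growth factors acting through mitogen-activated protein kinases (MAPK) induce Fos, Fosb and Junb within minutes in fibroblasts as immediate-early genes. Atf3 is induced by stress. Batf and Batf3, known from lymphocytes and dendritic cells, pair with Jun proteins and lack a transactivation domain.

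The 250 bases before the RefSeq start are shown for 6 of the genes, because they set the 4 genes whose called region peaked within 100 bp of that start (Fos, Jun, Atf3, Batf3) beside Junb, which peaked a little further inside the gene, and Batf, the only member without an interval. They are written from 5′ to 3′ on the gene's strand, from the RefSeq tables for GRCm38.p6, the assembly behind mm10. They lie at chr12:85473640-85473889 (plus strand), chr4:95052223-95052472 (minus), chr1:191183334-191183583 (minus), chr1:191098164-191098413 (plus), chr8:84978749-84978998 (minus) and chr12:85686470-85686719 (plus). Capitals mark the motifs named after the sequences.
Fos: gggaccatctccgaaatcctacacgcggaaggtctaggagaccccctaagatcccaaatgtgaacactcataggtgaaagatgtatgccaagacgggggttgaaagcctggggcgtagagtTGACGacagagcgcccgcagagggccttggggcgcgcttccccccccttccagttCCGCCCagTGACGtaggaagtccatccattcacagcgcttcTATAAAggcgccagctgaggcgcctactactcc
Jun: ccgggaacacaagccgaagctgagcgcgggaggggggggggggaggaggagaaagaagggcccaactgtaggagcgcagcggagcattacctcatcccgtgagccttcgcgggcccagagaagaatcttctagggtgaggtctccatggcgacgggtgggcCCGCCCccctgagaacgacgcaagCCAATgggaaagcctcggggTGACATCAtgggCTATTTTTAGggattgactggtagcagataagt
Atf3: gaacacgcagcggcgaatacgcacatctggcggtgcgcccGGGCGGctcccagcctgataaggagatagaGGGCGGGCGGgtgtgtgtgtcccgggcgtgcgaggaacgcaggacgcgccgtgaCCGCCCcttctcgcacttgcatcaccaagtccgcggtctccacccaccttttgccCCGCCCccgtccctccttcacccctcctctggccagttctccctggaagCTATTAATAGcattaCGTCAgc
Batf3: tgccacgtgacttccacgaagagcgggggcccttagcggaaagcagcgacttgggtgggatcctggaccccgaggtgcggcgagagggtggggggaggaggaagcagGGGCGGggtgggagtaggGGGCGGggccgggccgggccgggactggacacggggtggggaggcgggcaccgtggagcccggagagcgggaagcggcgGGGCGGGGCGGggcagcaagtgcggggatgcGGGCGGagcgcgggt
Junb: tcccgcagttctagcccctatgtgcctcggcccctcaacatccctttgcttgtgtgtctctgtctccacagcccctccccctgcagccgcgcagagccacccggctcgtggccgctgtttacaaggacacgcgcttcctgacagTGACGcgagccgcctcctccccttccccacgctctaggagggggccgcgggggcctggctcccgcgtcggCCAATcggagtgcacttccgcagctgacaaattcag
Batf: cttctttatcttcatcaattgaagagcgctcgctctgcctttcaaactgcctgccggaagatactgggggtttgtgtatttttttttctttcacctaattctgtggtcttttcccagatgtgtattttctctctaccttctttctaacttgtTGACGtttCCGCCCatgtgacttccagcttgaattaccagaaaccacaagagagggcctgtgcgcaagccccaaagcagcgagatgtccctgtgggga

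The motifs searched, on both strands, were TGACG, the core of the cAMP response element (CRE), the longer TGACNTCA, the AP-1 site TGANTCA, the TATA box read as TATAAA, the CCAAT box, the GC box read as GGGCGG, and by name the CArG box of serum response factor and the MEF2 site. TGACG and TGACNTCA overlap wherever the latter reads TGACG in its first bases. Of the 10 members 9 had an entry in the promoter table, and Fosl1 did not. TGACG stood in 5 of the 9, at 129 and 66 bp before the start in Fos, 106 bp before it in Junb, 98 bp in Batf and 60 bp in Fosb, and on the other strand at 7 bp in Atf3. It was present in 20.2% of 21263 promoters of protein-coding genes. Jun held TGACATCA, a form of TGACNTCA (7.25% of promoters), 45 bp before its start. The MEF2 site was found in Jun (CTATTTTTAG) and Atf3 (CTATTAATAG) and in 0.466% of promoters. A GC box stood in 7 of the 9 and in 42.6% of promoters, and the TATAAA of Fos, 33 bp before its start, in 11.6%. CCAAT was found in Jun and Junb (35.4% of promoters). The letters TGANTCA (6.13%) and the CArG box (1.39%) were not in these windows in any of the 9.

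Of the 10 AP-1 genes, 9 had an accessible interval within 1 kb of a gene end, and Batf alone had none. The share over all protein-coding genes was 47.4%. The same 9 had an interval over the gene body, against 52.8% of protein-coding genes. At 6 members (Fos, Fosb, Fosl1, Jun, Junb and Jund) both gene ends were within 1 kb of an interval, which held for 10.4% of all genes. Fos, Jun, Junb and Jund are short, at 1840 to 3385 bp against a median gene length of 17169 bp. At each of them 1 interval reached both ends. The share with both ends was not counted over short genes. The intervals were wide: the 11 within 1 kb of a member had a median width of 6310 bp (2538 to 9147 bp), against a median of 2453 bp over all intervals on the chromosomes. No test was made of these shares, because the list is 1 measurement of 1 group.

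**Figure D1:**
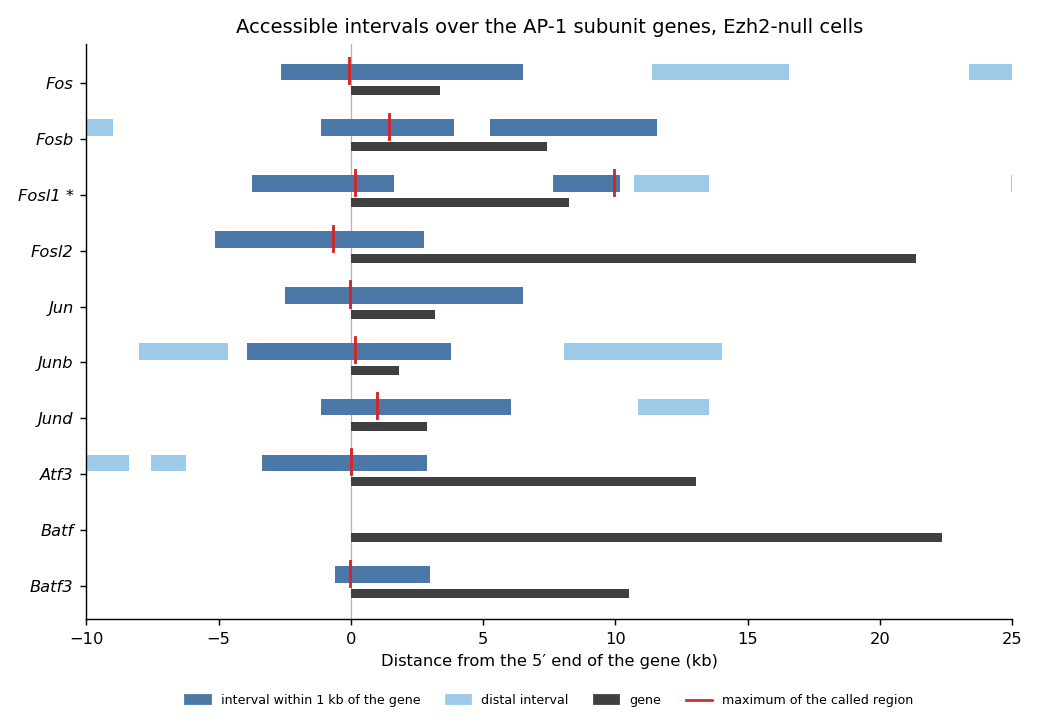
Accessible intervals over and beside each AP-1 subunit gene, drawn by distance from the 5′ end of the gene in kb; for Fosl1 (asterisk) the lower-coordinate end is at 0. Dark blue bars are intervals within 1 kb of the gene, light blue bars distal intervals, grey bars the genes and red ticks the maximum of a called region. Intervals cover Fos, Jun, Junb and Jund from end to end, stop inside the longer Fosl2, Atf3 and Batf3, and are missing at Batf.

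Total signal, the area under the coverage of a called region in the authors' unit, was high at most members. A percentile here is the share of the 19147 called regions on the chromosomes with a value no higher. Over the 9 members with an interval the median total signal was 113651 (percentile 97.0), against 40245 (median percentile 68.9) over the 10378 genes with a gene-end interval. Of the 9, 7 reached percentile 90, against 22.1% of the 10378 genes. Maximum signal, the height of the coverage, had a median of 53 (percentile 91.6) over the 9 members and 39 (percentile 76.2) over the 10378 genes. In height 5 of 9 members reached percentile 90 (Jun, Fosl2, Jund, Junb and Atf3), against 24.6% of those genes. Each value is that of the highest region at or over the gene.

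In order of total signal the members were Fosl2 (162832), Jun (157321), Junb (149889), Fosb (142088), Fos (113651), Jund (112928), Atf3 (86717), Fosl1 (64257) and Batf3 (29687). In order of maximum signal they were Jun (75), Fosl2 (58), Jund (57), Junb (54), Atf3 (53), Fos (50), Fosb (47), Fosl1 (40) and Batf3 (22). With no spread between replicates, neighbours in either order cannot be called different. Jun was the highest member in height and Fosl2 in area, and Batf3 was last in both, with its total near the median of all regions (29070).

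**Figure D2:**
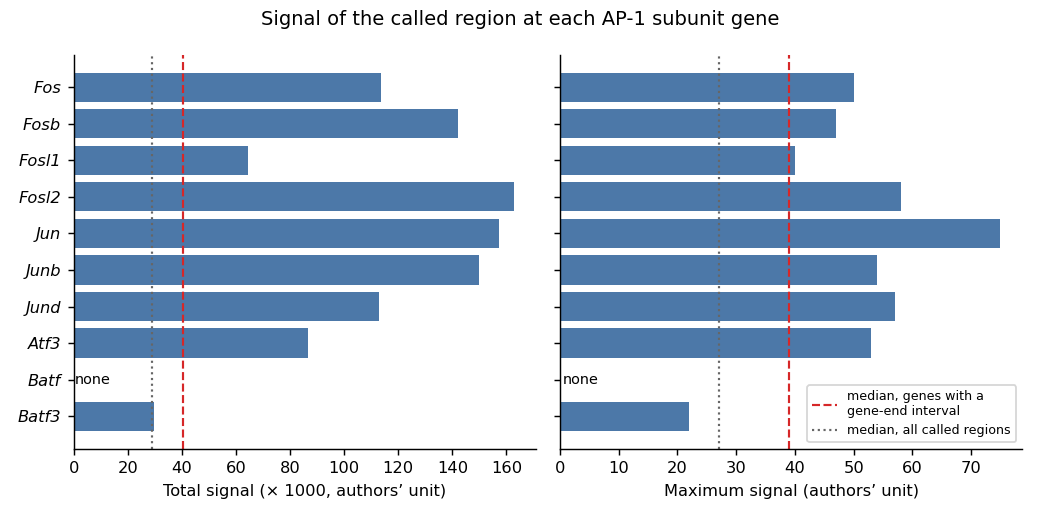
Total signal (left, divided by 1000) and maximum signal (right) of the highest called region at or over each AP-1 subunit gene, in the authors' unit, 1 value per gene with no replicate error. The dashed line is the median over genes with a gene-end interval (40245 in area, 39 in height) and the dotted line that over all called regions (29070 and 27). Batf has no region, Batf3 lies below the dashed line in both panels, and the other 8 genes lie above both lines.

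Among the Fos family, whose proteins need a Jun partner, Fos itself (chromosome 12, 85473890 to 85477274) lay wholly inside 1 interval of 9147 bp, at 85471269 to 85480415. The interval reached 2621 bp upstream of the start and 3141 bp beyond the other end of the gene. Its maximum of 50 lay 60 bp before the start, in the sequence shown, between the TGACG at 66 bp and the TATAAA at 33 bp. Its width was at percentile 98.5 of all intervals.

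Fosb, a close relative of Fos and also an immediate-early gene (chromosome 7, 19302696 to 19310118), carried a called region in 2 pieces of 6310 and 5059 bp, 1343 bp apart, which together covered 81.9% of the gene. The total signal of 142088 belongs to the whole region. Its maximum lay in the piece at the 5′ end, 1388 bp inside the gene from the RefSeq start. The other piece lay over the 3′ part and extended 4149 bp past the gene.

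Fosl1, which encodes Fra-1 (chromosome 19, 5447698 to 5455938), had 2 separate called regions, and its strand is not given in the table used. The interval at the lower end, from 5443960 to 5449332, had its maximum of 24 at 5447874, inside the gene, and its total was 45516. The one at the upper end reached 601 bp into the gene, and its region had the higher total, 64257, with the maximum of 40 at 5457640, outside the gene. That second region also reaches within 1 kb of an end of Ccdc85b, so the value ranked for Fosl1 is one it shares with a neighbour. By the lower-end region alone, Fosl1 stood at percentile 75.1 in total and 44.5 in maximum signal. The gene was covered at 27.1% of its length.

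Fosl2, which encodes Fra-2 (chromosome 5, 32136472 to 32157840), had the highest total signal of the members in 1 interval of 7891 bp at its 5′ end. Chromosome 5 was rich in intervals: its genes had a median of 6 within 100 kb, against 2 over all protein-coding genes. The part of the chromosome in this rank was not tested. The interval reached 5133 bp upstream and 2757 bp downstream of the start, and its maximum of 58 lay 655 bp upstream. It covered 12.9% of the 21369 bp of the gene, and no interval stood at the 3′ end.

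The 3 Jun genes, which are intronless, were each covered over their whole length. Jun (chromosome 4, 95049036 to 95052222) lay in an interval of 9015 bp that reached 2504 bp upstream of the start and 3324 bp past the 3′ end. Its maximum signal of 75 was at percentile 99.0, the highest of the members. The maximum spanned 42 to 40 bp before the start, within the TGACATCA shown above. Jun is known to be a target of its own protein.

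Junb (chromosome 8, 84976909 to 84978748), the shortest member at 1840 bp, lay in an interval of 7736 bp that extended 3927 bp upstream and 1969 bp past the 3′ end. Its maximum of 54 lay 154 bp inside the gene. The called region went on in a second piece of 3388 bp, 4633 bp upstream of the gene, and the total of 149889 covers both pieces.

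Jund, the Jun gene known for steady expression in quiescent as well as growing cells (chromosome 8, 70697739 to 70700616), lay in an interval of 7197 bp. Here the maximum of 57 fell 1006 bp inside the gene from the single RefSeq start in the table, although the table of genes lists 2 RefSeq transcripts. The 250 bases before that start had a CpG ratio (observed over expected CpG) of 0.21, the lowest of the 9 members with a promoter entry. The interval reached 1125 bp upstream of that start, less far than those of Jun and Junb, and ran 3194 bp past the 3′ end.

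Whole coverage went with gene length. The 4 members covered at 100% (Fos, Jun, Junb and Jund) were the 4 of 3500 bp or less. Of all protein-coding genes 1.9% were wholly covered, and of the 3819 genes of 3500 bp or less 7.96% were, while 22% of these short genes had a gene-end interval at all. The other 5 members with an interval were covered at 12.9% to 81.9% of their length.

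Atf3, a stress-response repressor and Jun partner (chromosome 1, 191170296 to 191183333), had 1 interval of 6235 bp over its 5′ end. It extended 3360 bp upstream and 2874 bp downstream of the start, and its maximum of 53 lay 9 bp inside the gene. Its total signal, 86717, was at percentile 93.8. Batf3, required for one lineage of dendritic cells (chromosome 1, 191098414 to 191108943), had the lowest values among the members with an interval. Its 3624 bp interval reached only 614 bp upstream, with a maximum of 22 (percentile 39.1) at 16 bp before the start and a total of 29687 (percentile 51.4). Atf3 and Batf3 are neighbours, 61.4 kb apart, and the total signal at Atf3 was 2.92 times that at Batf3.

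Batf, known for its role in T helper and B cells (chromosome 12, 85686720 to 85709087), had no interval over its 22368 bp or within 1 kb of either end. The nearest on its upstream side lay 85.2 kb away, at an end of Jdp2, which encodes a repressor that dimerises with Jun, and the nearest on the other side lay 115 kb away. Fos is 209 kb from Batf on the same chromosome. Absence from the list is not a measurement of closed chromatin. The lowest total signal in the list was 15316, and parts of called regions are missing from it, so absence through the authors' threshold and through a later step cannot be told apart.

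The intervals are not whole called regions throughout. In the list 4002 intervals (18.3%) do not overlap the maximum of their own region. Of the 11 intervals within 1 kb of a member, 10 hold it, and the exception is the 3′ piece at Fosb. Of the 70 distal intervals within 100 kb of members, 14 do not, and 5 of these are the only piece of their region. Widths, shares of a gene covered and distances are those of the deposited pieces.

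**Figure D3:**
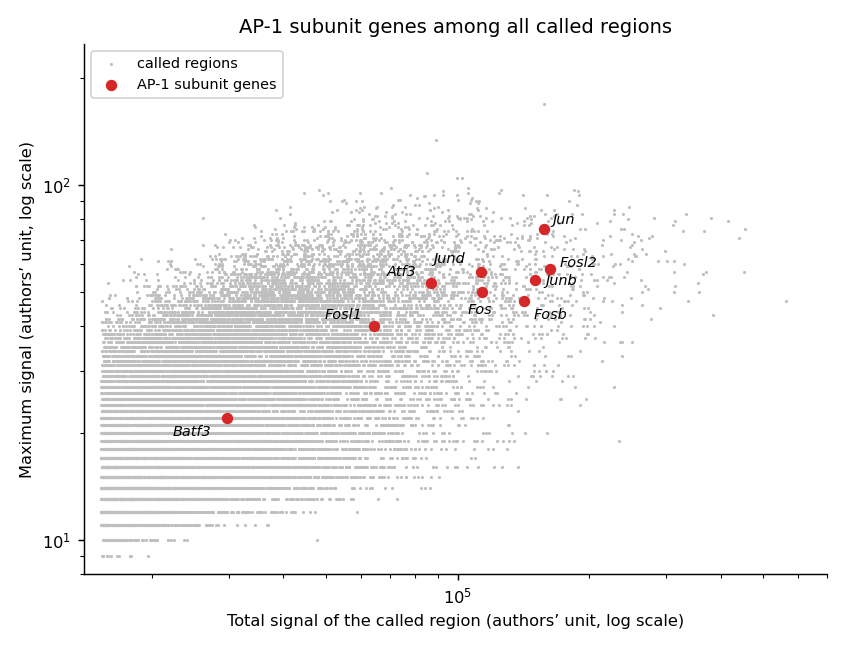
Maximum against total signal of all called regions on the chromosomes (grey, both axes logarithmic, authors' unit) with the highest region at each AP-1 subunit gene in red. Jun, Fosl2, Junb and Fosb lie together at the right, between 142088 and 162832 in area, and Batf3 lies in the middle of the cloud at 29687.

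The RefSeq starts allow the 5′ end to be told from the 3′ end for the 9 members with an entry. Of these, 8 had an interval within 1 kb of the start, against 46.9% of the 17492 genes with an entry. The maximum lay within 100 bp of the start at 4 of the 8, against 48.8% of genes with an interval there, so in this respect the members stood near the background. CpG ratio differed among them. It was above 0.6 at 7 of the 9, from 0.66 in Fosb to 0.92 in Atf3 and Batf3, and at 0.53 in Batf and 0.21 in Jund it was not. Over the 21263 promoters 44.7% were above 0.6 and the median ratio was 0.53. Genes above 0.6 had an interval within 1 kb of the start in 76% of cases, and genes at or below it in 20.2%. The 7 members above 0.6 all had an interval, and of the 2 below it Jund had one and Batf did not. The ratio of Jund is that of the window before the RefSeq start used, and its maximum lay 1006 bp from that start. The part of CpG content in the members' share was not tested.

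Distal intervals, with their nearest edge over 1 kb and at most 100 kb from the gene, numbered 70 around the 10 members, and 4 of them counted for both Atf3 and Batf3. The 70 came from 64 called regions. Without intervals of a region that also reaches the gene, an alternative chosen after seeing the data, 68 were left. Counts per gene are of intervals, so pieces of 1 region count separately. Members had a median of 7.50 each, against 2 (quartiles 0 and 6) over all protein-coding genes, and 7 of 10 had more than 6, against 21.6% of genes. The members had a median of 4.50 other protein-coding genes within 100 kb, against 4 over all genes. That number ranged widely, from 1 at Fos and Jun to 17 at Junb, and its part in the distal counts was not tested. Of the 70, 38 (54.3%) stood at an end of another protein-coding gene, 6 inside one and 26 between genes. These places were not counted over all intervals, so whether the shares are particular to the members is not known. Their median total signal was 40504 and their median maximum 32. Regions at or above percentile 90 in total signal supplied 17 of the 70 (24.3%), against 15.6% of all intervals on the chromosomes. Both shares count pieces, so a region in 2 pieces can count 2 times. The 17 also include 2 intervals of the members' own regions: the second piece of the Junb region and the interval at Atf3, counted for Batf3.

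The surroundings differed by member. Jund had 13 distal intervals, Fosl1 and Atf3 11 each, Fosb 9, Junb 8, Fos and Batf3 7 each, Fosl2 4, Jun 3 and Batf 1. Set against genes of the same chromosome, Jund was at percentile 97.5 (chromosome median 2), Fosb at 96.0 (2) and Fos at 94.4 (2). Atf3 was at 93.6 (3), Junb at 92.0 (2), Batf3 at 81.9 (3), Fosl1 at 77.3 (5) and Batf at 47.7 (2). Fosl2 on chromosome 5, where the median was 6, was at percentile 39.6, and Jun at 58.1 (median 3). Junb, Fosl1, Jund and Fosb lie among 12 to 17 other genes within 100 kb, and 31 of their 41 distal intervals stood at ends of those genes. The like share around other genes was not counted. Fos and Jun each had 1 other gene there.

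**Figure D4:**
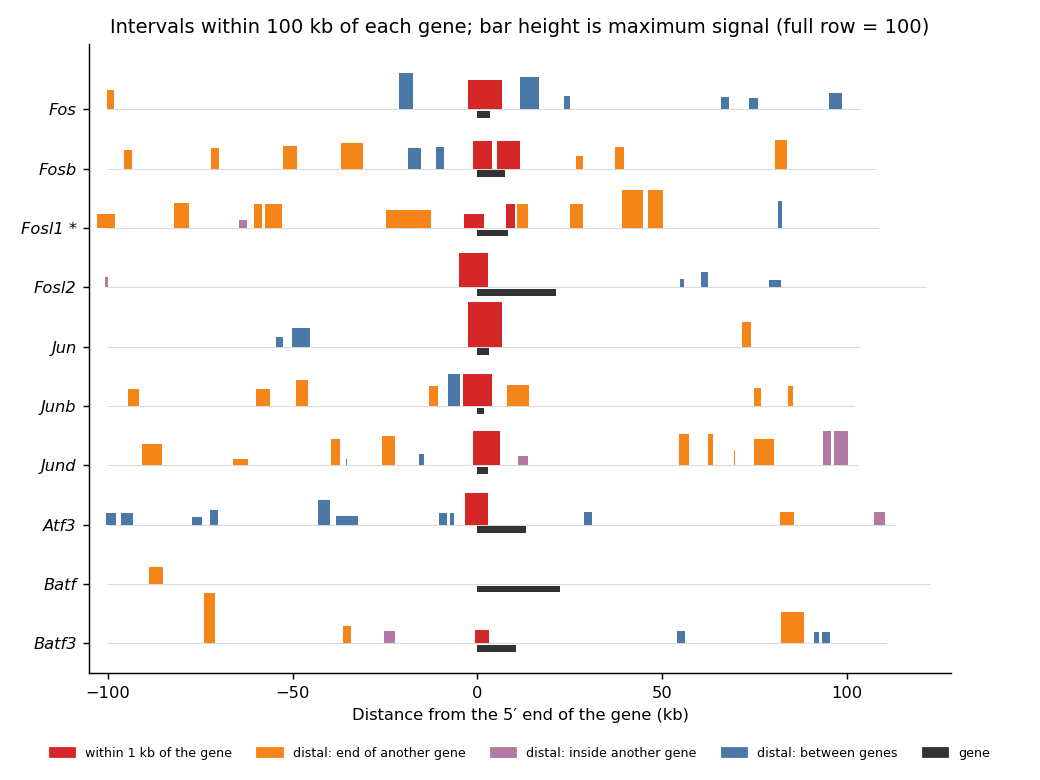
Intervals from 100 kb before to 100 kb after each AP-1 subunit gene, by distance from its 5′ end in kb (the lower-coordinate end for Fosl1, asterisk). Bar height is the maximum signal of the called region to which an interval belongs, also where a piece does not hold that maximum; red is within 1 kb of the gene and the other colours give the place of distal intervals. Atf3 and Fos have mostly blue bars, between genes (9 of 11 and 6 of 7), while Jund, Junb, Fosb and Fosl1 have mostly orange ones.

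Around Fos, 6 of 7 distal intervals were between genes, and Fos was the nearest gene to 3 of them. One of these, 17.4 kb upstream at 85452788 to 85456460, had a maximum of 61, above the 50 of the interval over Fos itself, and a total of 48729. Another, 8004 bp downstream of the gene at 85485278 to 85490453, had a maximum of 55 and a total of 76685 (percentile 91.6). The third, 19987 bp downstream, was low, with a maximum of 23. The remaining 3 lay nearer to Jdp2, 62.4 to 91.7 kb downstream, with maxima of 19 to 27.

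Around Atf3, 9 of 11 lay between genes, 8 on the upstream side, and Atf3 was the nearest gene to 4. None exceeded the interval at Atf3 in height: the highest maximum among them was 42, at 39.9 kb upstream, against 53 at the gene. The closest were 2 pieces of 1 region, 6247 and 8371 bp upstream, whose total was 36048 and maximum 19. Around Jun the only intervals between genes were 2 upstream, at 45.3 and 52.6 kb, with maxima of 32 and 17 against 75 at the gene. Fosl2 had 3 between genes downstream, from 33.5 to 57.6 kb, with maxima of 13 to 25 against 58 at the gene. Fosb had 2 upstream, 9005 and 15288 bp away, with maxima of 37 and 35 against 47 at the gene.

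The distal intervals of regions at or above percentile 90 in total signal were mostly those of other genes. Near Fosl1 they stood at ends of Cfl1, Mus81 and Snx32 (total signal 193514), of Drap1 and AI837181 (122468), of Efemp2 (89689) and of Sart1 and Tsga10ip (73207). Cfl1 encodes the actin-severing protein cofilin. Near Jund they stood at Rab3a and Mpv17l2 (121705), in or at Mast3 and Pik3r2 (102593 and 73484) and at Ssbp4 (92909). Near Fosb they stood at Opa3 (101593) and Ercc1 (73329). The exceptions were the interval downstream of Fos, the second piece of the Junb region, nearest to Hook2, and the interval of Atf3 as counted for Batf3. The highest maximum within 100 kb of any member, 85, stood at an end of Flvcr1, 71.1 kb upstream of Batf3.

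Other bZIP genes, a family by structure, and genes upstream of AP-1 had a gene-end interval as follows. Of 39 other bZIP genes 32 did (82.1%, exact 95% binomial interval 66.5 to 92.5, for counting over genes only), with a median total percentile of 73.2 and a median maximum percentile of 80.5, against 97.0 and 91.6 over the AP-1 genes. Of the 32, 10 reached percentile 90 in total, against 7 of the 9 AP-1 genes. The highest were Atf6b (191841), the gene of an unfolded-protein-response factor, Cebpb (190094), Ddit3 (177493), whose product CHOP acts in endoplasmic reticulum stress, and Nfe2l1 (165463), all above Fosl2. By alphabet, Atf4, Batf2 and Cebpe came first among those lacking one. Jdp2 had a total of 41306, and Atf2, which pairs with Jun at CRE-like sites, 20299. Among 33 kinases and factors upstream of AP-1, of which Creb1 and Atf2 are also bZIP genes counted above, 25 had an interval (75.8%, interval 57.7 to 88.9), led by Srf (120911), whose product binds the CArG box, Mef2d (93331), the MAPK kinase gene Map2k2 (90497) and Mapkapk2 (85146). Araf, Map2k1 and Map3k1 had none.

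Textbook targets of AP-1 were nearer to the background, with 14 of 25 (56%, interval 34.9 to 75.6) against 47.4% of all protein-coding genes. Among the highest were Vim (85139), Vegfa (82037) and the gelatinase gene Mmp9 (62970), and Cd44, Il2 and Itgav were the first without. Their median total percentile was 63.2. As a check of the label, 11 of 14 fibroblast marker genes had a gene-end interval, led by Col6a1 (144531), Col1a1 (108721), Col5a1 (105477) and Vim, while Pdgfra, Postn and Thy1 had none. Of 18 markers of other cell types 2 did, the neuronal gene Rbfox3 (354291) and the epithelial gene Krt8 (16652), and Alb and Apoa1 were among those without. Rbfox3, at percentile 99.9 in total signal, stood above all 14 fibroblast markers, and it lies on chromosome 11, as Col1a1 does. Pdgfra and the endothelial gene Pecam1 lacked a gene-end interval but each had 2 intervals over the gene body. The T cell gene Cd3e and the pan-leukocyte gene Ptprc were also among those with no gene-end interval.

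**Figure D5:**
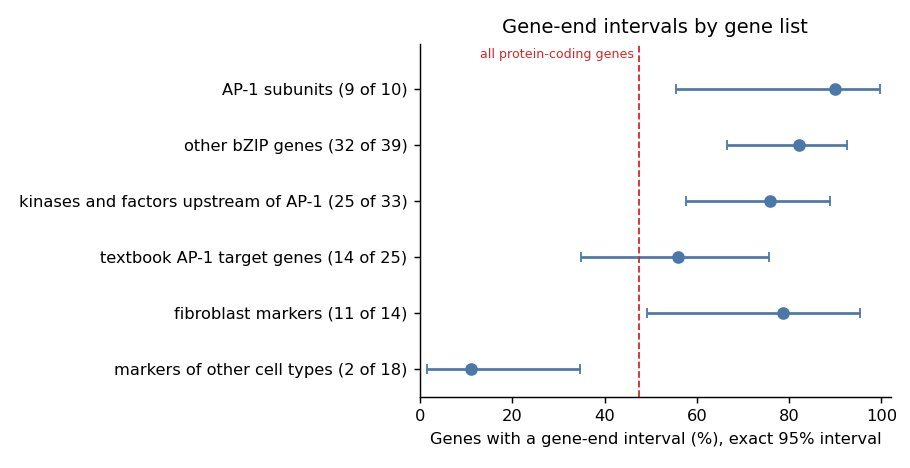
Percent of genes with a gene-end interval in 6 gene lists (points, with exact 95% binomial intervals over genes; counts beside the names). The dashed line is the share of all protein-coding genes, 47.4%. The points of AP-1 subunits (9 of 10), other bZIP genes (32 of 39) and AP-1 targets (14 of 25) lie to its right. So do those of kinases and factors upstream of AP-1 (25 of 33) and fibroblast markers (11 of 14). The interval of AP-1 targets, 34.9 to 75.6, spans the line. That of markers of other cell types (2 of 18) lies to its left. The lists were chosen with earlier results of these data known, so the intervals are not a test against the line.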

How the data were processed

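ATAC-seq was done on whole cells, per the labels' protocols. The submitters' processing notes name Bowtie2 2.2.9, deepTools, SEACR and mm10, without order or settings. Not given in the sources used here are how replicates were combined, the threshold of the caller, whether a control was used, how duplicates were handled and whether reads were shifted. Each of these could change widths and values. The deposited list carries no header, and its 6 columns follow SEACR's output. Column 4 as deposited is read as total signal, the area under a region's coverage, a score in the authors' own unit. Column 5 as deposited is read as maximum signal, the height of that coverage, for which the authors state no normalization. Its values carry no sample, and it was taken as the Ezh2 -/- group from its name.

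Intervals with the same total, maximum and position of maximum were taken as pieces of 1 called region. The pieces look like what an overlap with another interval set would leave, a step that no source used here describes and that could shorten or remove intervals. Genes came from the RefSeq table for GRCm38.p6, and strand and start from its promoter table. Overlap required 1 bp. Positions are 1-based. Genes named from the other lists are up to 4 with the highest total and, by alphabet, the first 3 that lack an interval, and the genes at distal regions from percentile 90 on; Jdp2, Atf2, Creb1, Cd3e, Ptprc and Flvcr1 were named after their values were seen. Some genes that the rule takes are left unnamed here. The members and lists were chosen with earlier results of these data known, and the list was not tested against other genes. The lookup of intervals, tested on simulated data, gave the same answer as direct comparison for 400 genes, with 0 differences. Python 3.11.15, numpy 2.4.6, pandas 2.3.3, scipy 1.17.1 and matplotlib 3.10.9 were used.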

Additional observations from a re-analysis of the deposited data

How the results depend on the processing

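The 9 members with a gene-end interval and the 9 with one over the gene body were 9 or 8 under every alternative run. Over all protein-coding genes the gene-end share was 45.9% with a window of 500 bp and 50.2% with 2500 bp. With only intervals that contain their own maximum it was 45.2%. The like share was not counted for an overlap of at least 200 bp or, under the alternatives, for the gene body. Batf3 was lost when only regions from the upper quartile of total signal upward were kept. The RefSeq start alone, an alternative chosen after seeing the data, gave 8 because Fosl1 has no entry. Of the 70 distal intervals, 45 belonged to regions at or above the median total and 27 to regions at or above its upper quartile; within 50 kb there were 33, and within 200 kb 129. These changes follow from the construction of each set. The median total percentile of 97.0 was 93.9 when ranked among intervals, 94.5 among regions at gene ends and 97.8 without chromosomes 5, X, Y and distal 11. The median maximum percentile of 91.6 was 90.6, 84.5 and 90.8 in the same order of settings. In the sets from the median and from the upper quartile upward, other bZIP genes stood at 64.1% and 35.9%, upstream genes at 45.5% and 33.3% and targets at 32% and 16%. All protein-coding genes stood at 32.7% and 19.6%, so the targets' shares were close to the background. Of 45 alternatives in all, 29 left the value within 1.5 times (counts) or within its 95% binomial interval (shares and percentiles), and 16 did not. The percentiles are medians over the 9 members with an interval, and a binomial interval does not measure the spread among these members. Shifts as small as 97.0 to 97.8 and 91.6 to 90.8 were among the 16, so for percentiles this tally is no measure of robustness. No paired analysis was possible because the list holds no value per replicate, and for the same reason no replicate could be left out. Depth is unknown.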
